A study of Homo sapiens with 8 samples.

Results

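The 10 genes AURKA, AURKB, PLK1, PLK2, PLK3, PLK4, CDK1, NEK2, WEE1 and PKMYT1 encode protein kinases that start, time or delay cell division. They were chosen by symbol in a table of 65975 Ensembl identifiers. Each symbol had a single identifier, and all 10 genes were among the 17460 genes that averaged 1 FPKM or more, a unit that scales reads to transcript length and to library size. RNA-seq was performed on A673, an established patient-derived Ewing Sarcoma cell line that carries the EWS/Fli1 fusion, after 36 hours in the vehicle DMSO or in 2 μM of JIB-04, a small-molecule inhibitor of Jumonji-domain histone demethylases. Each group had 4 libraries, both groups were the same unmodified line grown in the same medium, and 1 cell line is the whole of the model. The study says that each group was treated in 4 replicates, but not whether these were independent experiments. Each p-value thus reflects the spread of these samples alone, which may be technical.

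CDK1 with cyclin A or B is the engine that carries a cell from G2 into mitosis. WEE1 and PKMYT1 hold it off by phosphorylating its ATP-binding loop, WEE1 on a tyrosine and PKMYT1 mainly on the neighboring threonine, and the CDC25 phosphatases remove these phosphates. PLK1 and the Aurora kinases then build and work the spindle, NEK2 separates the centrosomes, PLK4 copies the centrioles, and PLK2 and PLK3, relatives of PLK1, are known as genes that serum and cellular stress turn on. In dividing cells the RNA of many of these genes peaks in G2 and mitosis. The DREAM and MMB-FOXM1 complexes, which act at different times of the cell cycle, regulate such genes through promoter sites called CHR. NF-Y does so through CCAAT boxes.

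The target of WEE1 and PKMYT1 is shown because their RNA and that of CDK1 are compared in what follows. It lies in the coding sequence of CDK1, at codons 14 (threonine) and 15 (tyrosine), in a coding exon on the plus strand at chr10:60784707-60784733 of GRCh38 (GENCODE 29). In the stretch from codon 14 to codon 22, capitals mark codons 14 and 15.
CDK1 codons: ACCTATggagttgtgtataagggtaga

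The promoters of 7 of the 10 genes matched RefSeq windows on GRCh38.p14 that run from 250 bases before to 50 bases after a transcript start, 11 windows in all. AURKA, WEE1 and PKMYT1 had no window. The CHR letters TTTGAA, searched on both strands, were in 4 of the 11 windows, those of PLK1, PLK4 and CDK1, and in 15.2% of all 35116 windows. CCAAT, on both strands, was in 7 of the 11 windows, those of AURKB, PLK1, PLK4, CDK1 and NEK2, and in 34.6% of all windows. The GC box letters GGGCGG, on both strands, were in all 11 and in 45% of all windows. The windows of 1 gene overlap for AURKB and CDK1, so they are not independent. These motifs do not overlap each other in the stretches printed. The stretches of 30 bases are shown for genes that fell (PLK1, AURKB), that did not pass the test (CDK1, NEK2) and that rose (PLK2, PLK3), with matches to the CHR and to CCAAT in capitals for the first 4 genes and the GC box in capitals for PLK2 and PLK3, whose windows held no other match. A motif on the other strand appears as its reverse complement.
PLK1, chr16:23678809-23678838, plus strand: cccgcggCCAATcagtggcgcgcaggcttt
PLK1, chr16:23678859-23678888, plus strand: gTTTGAAttcggggaggagcggagcggtgc
CDK1, chr10:60778393-60778422, plus strand: ggctctgATTGGctgcTTTGAAagtctacg
CDK1, chr10:60778448-60778477, plus strand: ccctttagcgcggtgagTTTGAAactgctc
AURKB, chr17:8210360-8210389, minus strand: ccagcgcccagATTGGggctagtgtgctga
NEK2, chr1:211675637-211675666, minus strand: cccaccgcctgCCAATagactgcgagatca
PLK2, chr5:58460117-58460146, minus strand: tcgagtctCCGCCCccttcccgcctccccg
PLK3, chr1:44800287-44800316, plus strand: gctaggaaggGGGCGGgactctcggtgacc
CHR and CCAAT were in the same window in 3 of the 11, those of PLK1 and CDK1, and in 5.9% of all windows, and of the pair only PLK1 passed the test of RNA described next; a difference between their responses was not tested. Only these exact letters were searched, so a site spelled otherwise would be missed. These matches are descriptions of letters, and no binding was measured here.

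Across the libraries the FPKM summed to 1346289 to 1370436 with vehicle and to 1175407 to 1237186 with JIB-04, and transcripts of the mitochondrial genome made up 9.99% to 10.6% and 4.59% to 5.54% of that sum. Each library's depth relative to vehicle replicate 1 was estimated from the most common ratio of their FPKM over genes of very low level. It was 0.821 to 0.956 in the other vehicle libraries and 0.766 to 0.923 with JIB-04. The numbers of mapped reads are not given in the sources. Of 8 Ewing Sarcoma markers all were expressed, from FLI1 at 60.4 FPKM to CD99 at 1159.9 FPKM with vehicle. With JIB-04, by the test described below, 5 of these 8 were lower, CD99 at 599 FPKM among them, and FLI1 was higher. Over all genes tested 38% were lower and 34.2% higher. With each library rescaled to the same total, 3 of the 8 were lower and 3 higher, against 31.1% and 40.4% of all genes. The 8 summed to 2799 to 2877 FPKM with vehicle and 1983 to 2210.1 with JIB-04. All 10 markers of blood, epithelium, endothelium and muscle averaged under 1 FPKM with vehicle. With JIB-04 ITGAM (0.295 to 2.39 FPKM) and PECAM1 (0.568 to 1.29 FPKM) were above 1, and the 10 summed to 1.14 to 1.49 FPKM with vehicle and 4.39 to 5.57 with JIB-04. The part of these markers, and of the mitochondrial share, in the results that follow was not tested.

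JIB-04 treatment lowered the RNA of AURKB, PLK1 and AURKA to 36.0% to 44.9% of vehicle, lowered PKMYT1 and WEE1 less, raised PLK2 and PLK3, and left CDK1, NEK2 and PLK4 without a change that passed the test. By limma on log2(FPKM + 0.5), with Benjamini-Hochberg adjustment over all 17460 genes and a threshold of 0.05, 5 of the 10 kinase genes were lower, 2 were higher and 3 did not pass. Over all genes tested 72.2% passed, 38% lower and 34.2% higher, so the count of 7 in 10 was near the background and is no result about these kinases as a set. By at least 2-fold, 3 were lower and 2 were higher, against 11.8% and 13.1% of all genes (24.9% in either direction). After each library was rescaled to the same total, 4 were lower and 2 higher, against 31.1% and 40.4% of all genes. With that rescaling AURKA, at a log2 fold change of -0.98, was just short of 2-fold lower. In 7 of the 10 the JIB-04 and vehicle values did not overlap, as in 67.3% of all genes. The median log2 fold change of the 10 was -0.28, and that of all genes was -0.066. In RNA from a bulk culture, fewer cells in G2 and mitosis and less RNA per cell cannot be told apart. The study measured cell cycle phases by flow cytometry at this dose and time and reported a smaller share of cells in S phase. Its text gives no value for G2 and mitosis.

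**Figure D1:**
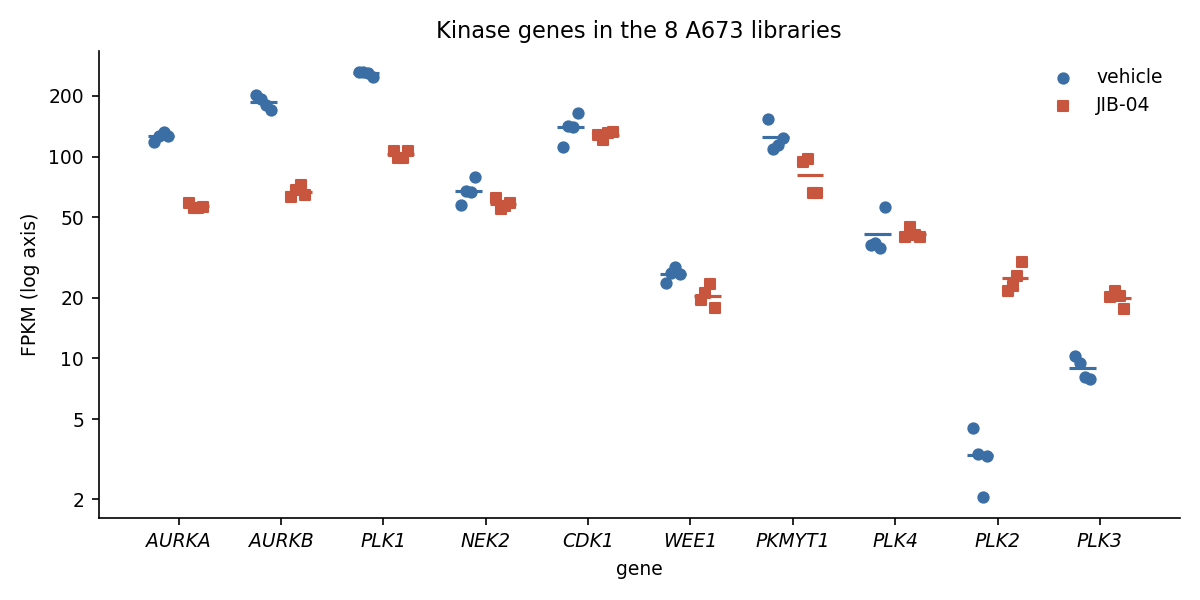
Level of each kinase gene in the 8 libraries, in FPKM on a log axis. Blue circles are the 4 vehicle libraries, red squares the 4 JIB-04 libraries and bars the group means: AURKA, AURKB and PLK1 dropped with no overlap, PLK2 and PLK3 rose with no overlap, and CDK1, NEK2 and PLK4 overlapped.

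AURKA (ENSG00000087586, chr20:56369389-56392337, minus strand of GRCh38) encodes the kinase that matures the centrosomes and the spindle poles. Its level was 118, 127, 132 and 126 FPKM in vehicle replicates 1 to 4 and 59.1, 55.4, 55.6 and 56.3 FPKM with JIB-04. Every JIB-04 library was below the lowest vehicle library, by a wide gap beside the spread within either group. The means were 126 ± 6.05 and 56.6 ± 1.69 FPKM (SD, n = 4 per group), a log2 fold change of -1.15 ± 0.048 (SE) with an adjusted p of 4.95e-08 by limma. A processed copy of the gene, AURKAPS1, which can share reads with it, averaged 10.1 FPKM with vehicle and 5.13 with JIB-04, a small quantity beside AURKA.

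AURKB (ENSG00000178999, chr17:8204733-8210600, minus strand) encodes the kinase of the chromosomal passenger complex, which corrects the attachment of chromosomes to the spindle. It was at 201, 192, 180 and 171 FPKM with vehicle and at 63.3, 68.3, 72.1 and 64.4 FPKM with JIB-04. All 4 treated libraries were under the untreated ones. Its mean fell from 186 ± 13.4 to 67.0 ± 4.03 FPKM (SD, n = 4 per group), with an adjusted p of 6.51e-08 by limma for a log2 fold change of -1.47 ± 0.064 (SE), and 4.70% of all genes tested had a lower log2 fold change. AURKB fell further than AURKA: the ratio of their FPKM within a library was 1.35 to 1.71 with vehicle and 1.07 to 1.30 with JIB-04, with no overlap (difference of mean log2 ratio -0.32, exact two-sided permutation p = 0.0286, the smallest that 4 against 4 libraries allow, adjusted p = 0.0429 over the 6 ratios tested). Without vehicle replicate 1, vehicle replicate 2 or JIB-04 replicate 1 this difference no longer passed (adjusted p = 0.0857, 0.0857 and 0.129). The study named AURKA and AURKB as lower in these same samples, so their fall here is not independent evidence.

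PLK1 (ENSG00000166851, chr16:23677656-23690367, plus strand) encodes the kinase that acts from mitotic entry to cytokinesis, and it was the most abundant of the 10 with vehicle. Its FPKM were 262, 263, 259 and 249 with vehicle and 107, 98.0, 97.9 and 107 with JIB-04. The vehicle values lay within a narrow range and the treated values far below it. The mean went from 258 ± 6.63 to 103 ± 5.25 FPKM (SD, n = 4 per group), with an adjusted p of 1.7e-08 by limma for a log2 fold change of -1.33 ± 0.045 (SE), the smallest adjusted p of the 10.

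NEK2 (ENSG00000117650, chr1:211658657-211675630, minus strand), which dissolves the linker between centrosomes, had 57.8, 67.7, 66.5 and 78.9 FPKM with vehicle and 62.1, 55.2, 57.1 and 59.2 with JIB-04. Vehicle replicate 1 lay among the treated libraries and the groups overlapped. The means of 67.7 ± 8.66 and 58.4 ± 2.95 FPKM (SD, n = 4 per group) gave a log2 fold change of -0.20 with a 95% interval of -0.40 to -0.0050, unadjusted over genes, and a limma adjusted p of 0.0621. Without vehicle replicate 1 NEK2 passed, at -0.28 (adjusted p = 0.00894). A fall as deep as that of the Aurora kinases or PLK1 lies outside that interval.

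CDK1 (ENSG00000170312, chr10:60778331-60794852, plus strand) was at 111, 142, 140 and 165 FPKM with vehicle and at 128, 121, 130 and 132 with JIB-04. The treated libraries all lay inside the vehicle range. Means of 140 ± 22.03 and 128 ± 5.03 FPKM (SD, n = 4 per group) gave a log2 fold change of -0.11 (95% interval -0.35 to 0.12, limma adjusted p = 0.343). Here too vehicle replicate 1 was the lowest of its group, and without it the log2 fold change was -0.22 (adjusted p = 0.018). Rescaling each library to the same total (TPM) turned the sign of the difference, to 0.049 (adjusted p = 0.691).

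WEE1 (ENSG00000166483, chr11:9573681-9593457, plus strand) and PKMYT1 (ENSG00000127564, chr16:2968024-2980539, minus strand), the kinases that hold CDK1 inactive, were both lower, by less than 2-fold. WEE1 had 23.5, 26.5, 28.3 and 26.3 FPKM with vehicle and 19.4, 21.1, 23.3 and 17.8 FPKM with JIB-04. The highest treated value, 23.3, was just under the lowest vehicle value, 23.5. Its mean fell from 26.2 ± 2.00 to 20.4 ± 2.33 FPKM (SD, n = 4 per group), with an adjusted p of 0.00646 by limma for a log2 fold change of -0.35 ± 0.092 (SE), and after rescaling to TPM the change of -0.19 did not pass (adjusted p = 0.103).

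PKMYT1 was at 153, 109, 114 and 123 FPKM with vehicle and at 93.9, 97.2, 65.7 and 65.6 FPKM with JIB-04. The treated libraries lay as a higher and a lower pair, all under the vehicle libraries. Means of 125 ± 19.7 and 80.6 ± 17.3 FPKM (SD, n = 4 per group) gave a log2 fold change of -0.64 ± 0.16 (SE) with an adjusted p of 0.00519 by limma. The gene PAQR4 lies within the span of PKMYT1 on the opposite strand and fell from 54.2 ± 3.70 to 15.5 ± 2.34 FPKM (SD, n = 4 per group). The libraries were directional, but whether the counting used strand is not given by any source used here, so reads of the pair may not be fully told apart.

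Relative to CDK1, the kinase they restrain, neither inhibitor passed the test. The ratio of WEE1 to CDK1 was 0.159 to 0.211 with vehicle and 0.135 to 0.179 with JIB-04, and that of PKMYT1 to CDK1 was 0.747 to 1.37 and 0.496 to 0.805. Both pairs of ranges overlapped, and the differences of mean log2 ratio, -0.24 and -0.52, had an exact two-sided permutation p of 0.114 each (adjusted p = 0.114 over the 6 ratios). Without JIB-04 replicate 2 the PKMYT1 difference was -0.65 and passed (adjusted p = 0.0343).

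**Figure D2:**
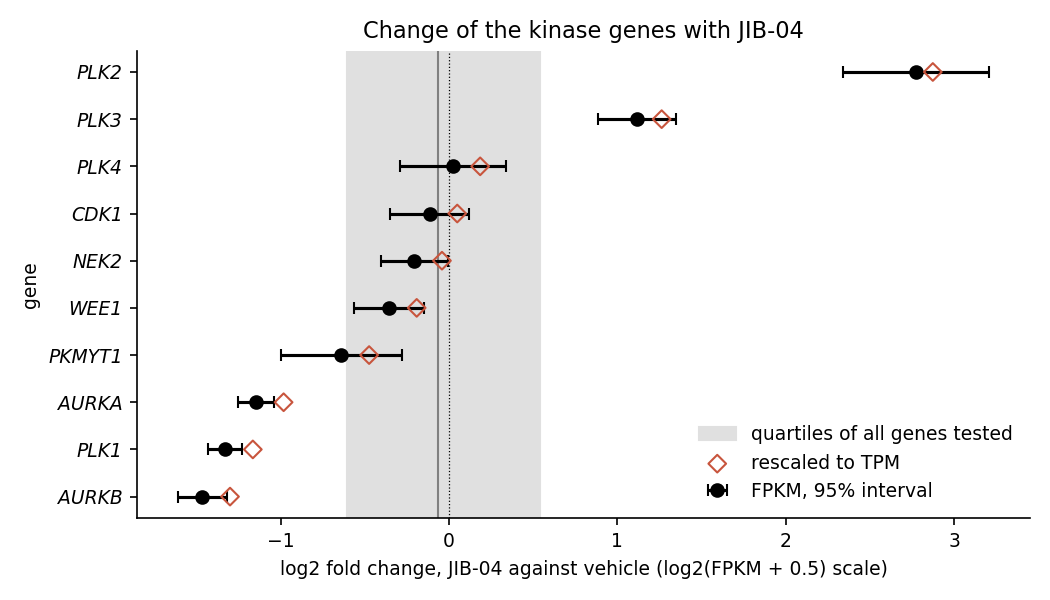
Log2 fold change of each kinase gene, JIB-04 against vehicle, on the log2(FPKM + 0.5) scale. Black points with bars are the limma estimates with 95% intervals, and red diamonds the estimates after rescaling to TPM. The grey band runs from the lower to the upper quartile of all 17460 genes (-0.60 to 0.54) and the grey line is their median. AURKA, AURKB and PLK1 lie left of the band, PLK2 and PLK3 right of it, and the intervals of CDK1 and PLK4 span 0. The PKMYT1 estimate is narrowly left of the band, but its interval reaches into the band and its TPM estimate lies inside it.

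The polo-like kinase family split. PLK2 (ENSG00000145632, chr5:58453982-58460260, minus strand) was the least abundant of the 10 genes with vehicle, at 4.49, 3.36, 2.06 and 3.29 FPKM, and it reached 21.5, 22.9, 25.6 and 29.9 FPKM with JIB-04. The lowest treated library held several times the highest vehicle one. Its mean rose from 3.30 ± 0.994 to 24.98 ± 3.70 FPKM (SD, n = 4 per group), 7.57-fold as a ratio of means, with a log2 fold change of 2.77 ± 0.19 (SE) with an adjusted p of 1.17e-06 by limma. On that scale 98.4% of all genes tested had a lower value.

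PLK3 (ENSG00000173846, chr1:44800225-44805990, plus strand) had 10.3, 9.49, 8.07 and 7.89 FPKM with vehicle and 20.1, 21.7, 20.3 and 17.6 FPKM with JIB-04. Each treated library was above every vehicle library. The mean rose from 8.93 ± 1.15 to 19.9 ± 1.68 FPKM (SD, n = 4 per group), 2.23-fold as a ratio of means, with a log2 fold change of 1.12 ± 0.10 (SE) with an adjusted p of 7.39e-06 by limma.

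PLK4 (ENSG00000142731, chr4:127880861-127899195, plus strand) was at 36.5, 37.2, 35.4 and 56.4 FPKM with vehicle and at 39.9, 44.6, 41.0 and 39.8 FPKM with JIB-04. Vehicle replicate 4 stood alone above all other libraries, and the treated libraries lay between it and the other three. Means of 41.4 ± 10.1 and 41.3 ± 2.24 FPKM (SD, n = 4 per group) gave a log2 fold change of 0.024 (95% interval -0.29 to 0.34, limma adjusted p = 0.885). Without vehicle replicate 4, PLK4 was higher with JIB-04, at 0.18 (adjusted p = 0.0206), a small difference that 1 library decides.

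As a share of the summed FPKM of the 4 polo-like kinase genes, which is a share of levels per length, PLK1 went from 82.8% ± 2.88 with vehicle to 54.3% ± 2.04 with JIB-04 (SD, n = 4 per group). PLK2 went from 1.06% ± 0.309 to 13.2% ± 1.77, PLK3 from 2.86% ± 0.358 to 10.6% ± 1.07, and PLK4 from 13.2% ± 3.07 to 21.9% ± 1.45. The sum itself was 305 to 316 FPKM with vehicle and 185 to 194 with JIB-04. Within a library the ratio of PLK2 to PLK1 was 0.00796 to 0.0171 with vehicle and 0.200 to 0.279 with JIB-04, and that of PLK3 to PLK1 was 0.0311 to 0.0392 and 0.165 to 0.221. The ratio of PLK4 to PLK1 was 0.137 to 0.227 with vehicle and 0.372 to 0.455 with JIB-04. None of these 3 ratios overlapped between the groups, the differences of mean log2 ratio were 4.10, 2.45 and 1.35, and each had an exact two-sided permutation p of 0.0286 (adjusted p = 0.0429 over the 6 ratios). The scaling of a library cancels in such a ratio, except for the small constant of 0.5 FPKM added before the logarithm, and with 0.1 or 1 added instead the 3 differences still passed. Without vehicle replicate 1, vehicle replicate 2 or JIB-04 replicate 1 the groups still did not overlap in them, but the adjusted p was 0.0571 each, since fewer of the 6 ratios then reached the smallest exact p.

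**Figure D3:**
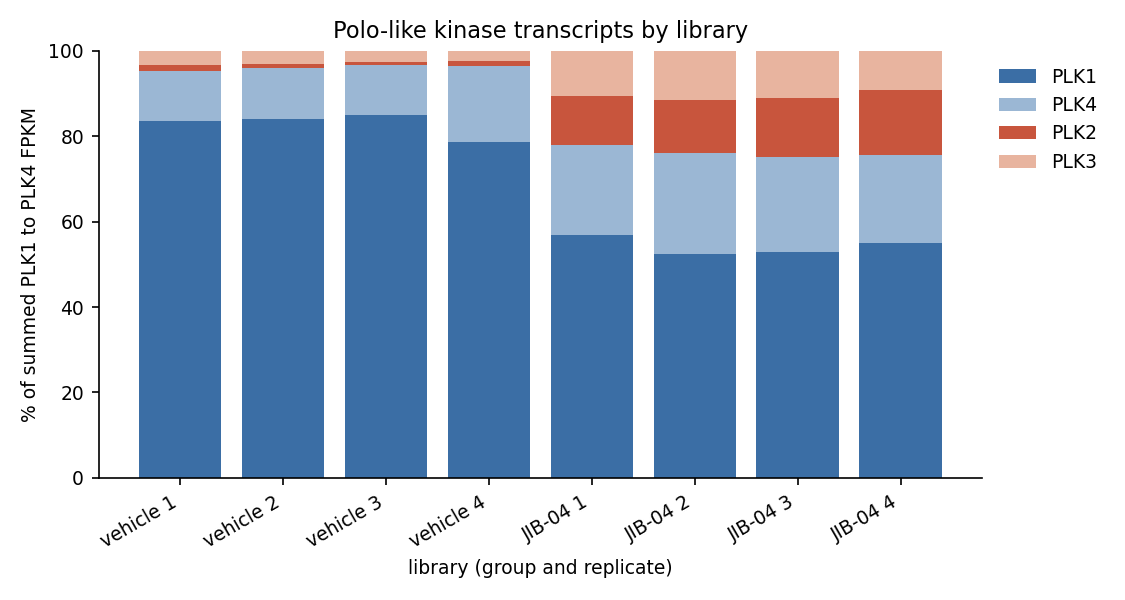
Share of each gene in the summed FPKM of PLK1, PLK2, PLK3 and PLK4, in percent, for each of the 8 libraries. PLK1 made up 78.6% to 85.1% of the sum in the vehicle libraries and 52.4% to 56.8% in the JIB-04 libraries, and PLK2 0.677% to 1.43% and 11.4% to 15.4%.

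**Figure D4:**
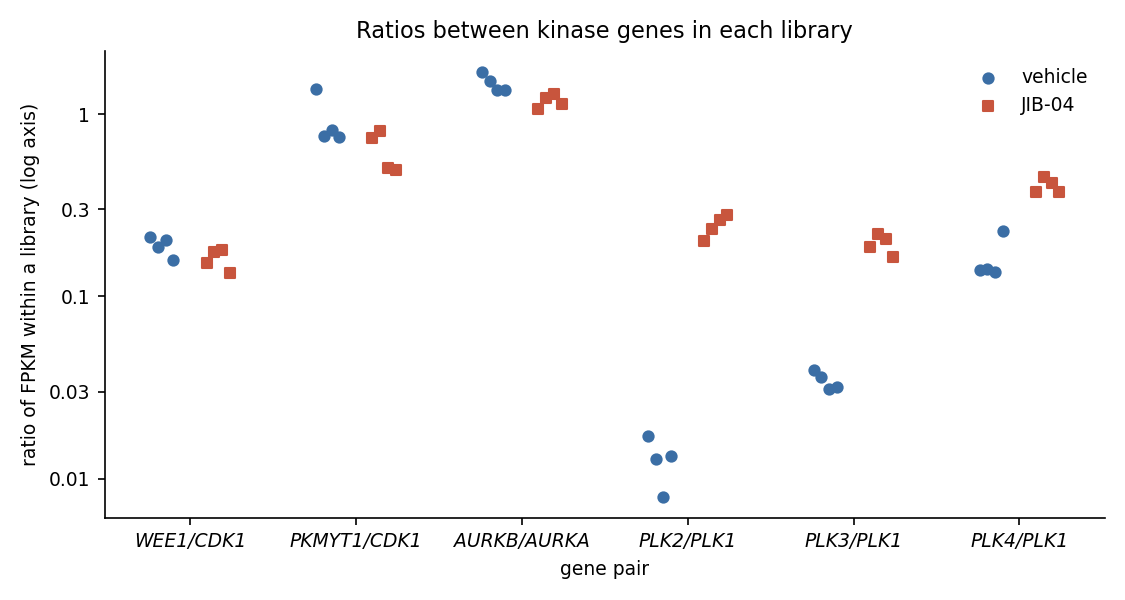
Ratio of FPKM between 2 kinase genes within each library, on a log axis. Blue circles are the 4 vehicle libraries and red squares the 4 JIB-04 libraries: the ratios to PLK1 and that of AURKB to AURKA did not overlap between the groups, and those of WEE1 and PKMYT1 to CDK1 did.

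By level per length, the order with vehicle was PLK1, AURKB, CDK1, AURKA, PKMYT1, NEK2, PLK4, WEE1, PLK3 and PLK2. The neighbors CDK1 and AURKA, and AURKA and PKMYT1, overlapped in their library values, and all other neighbors were apart. With JIB-04 the order became CDK1, PLK1, PKMYT1, AURKB, NEK2, AURKA, PLK4, PLK2, WEE1 and PLK3. There PKMYT1 with AURKB, NEK2 with AURKA, PLK2 with WEE1 and WEE1 with PLK3 overlapped. The range over the 10 genes narrowed, from 3.30 to 258 FPKM with vehicle and from 19.9 to 128 FPKM with JIB-04 in the group means.

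The counts of the gene lists that follow stand beside 38% lower and 34.2% higher over all genes tested, and no list was tested against other genes. Of 6 cyclins and accessory subunits, 5 were lower and CKS2 was higher, with a median log2 fold change of -0.79; the 5 include cyclin F, which is no partner of CDK1. CCNF, cyclin F, the F-box protein of a ubiquitin ligase, went from 43.2 ± 1.10 to 12.8 ± 0.482 FPKM (± SD, n = 4 in each), or -1.71 on the log2 scale (limma adjusted p = 8.77e-09). CCNB1 and CCNB2, the B-type cyclins, went from 482 ± 30.4 to 201 ± 13.6 FPKM and from 107 ± 10.2 to 54.1 ± 2.30 FPKM. CKS1B and CKS2, a pair of closely related small subunits, moved apart, CKS1B from 133 ± 5.72 to 87.0 ± 1.98 FPKM and CKS2 from 441 ± 15.4 to 630.1 ± 63.6 FPKM (log2 fold change 0.51, limma adjusted p = 0.000113).

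Among the CDC25 phosphatases and G2 checkpoint genes, 6 of the 11 tested were lower, 4 were higher, near the 34.2% of all genes, and RAD17 did not pass, with a median of -0.32, and SFN was below 1 FPKM. CHEK2, a checkpoint kinase downstream of ATM, went from 74.0 ± 6.51 to 23.7 ± 1.31 FPKM (± SD, n = 4 in each), or -1.62 on the log2 scale (limma adjusted p = 7.13e-08), and CHEK1, downstream of ATR, from 87.8 ± 9.01 to 62.2 ± 2.63 FPKM. CDC25B, which helps start mitosis, had a log2 fold change of -1.19 (limma adjusted p = 1.33e-07). CDC25C, named after its values were seen as the other mitotic phosphatase, had one of -0.42 (limma adjusted p = 0.00139). CDC25A, ATR, ATM and TOPBP1 were higher, with log2 fold changes of 0.14, 0.45, 0.81 and 0.55, and the ATR values overlapped between the groups.

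Of 7 Aurora cofactors, 5 were lower (38% of all genes), NEDD9 was higher and AJUBA did not pass, with a median of -0.51. BIRC5 and CDCA8, subunits of the chromosomal passenger complex with AURKB, had log2 fold changes of -1.21 and -0.85. BORA, which helps AURKA activate PLK1, went from 9.09 ± 1.28 to 3.57 ± 0.215 FPKM (± SD, n = 4 in each), or -1.23 on the log2 scale (limma adjusted p = 6.13e-06). NEDD9, a scaffold of focal adhesions that binds AURKA, went the other way, from 5.88 ± 0.934 to 16.9 ± 1.36 FPKM (log2 fold change 1.46, limma adjusted p = 2.46e-06). In other mitotic kinases, 8 of the 13 tested were lower, 3 were higher and TTK and VRK1 did not pass, with a median of -0.41. AURKC, 1 of the 3, reached the 1 FPKM filter only through its JIB-04 values, and with a filter of 5 FPKM, which removed it alone, 2 were higher and the median was -0.52. The smallest adjusted p-values were those of NEK9, which acts with PLK1 on centrosome separation, BUB1 and BUB1B of the spindle checkpoint, and GSG2, the haspin kinase of histone H3, with log2 fold changes of -1.04, -0.78, -0.64 and -0.72. NEK7 and MASTL were higher, by 0.87 and 0.42 on the log2 scale.

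Genes that control transcription in G2 and mitosis went both ways. Of 14, 6 were lower, 4 were higher and 4 did not pass, with a median of -0.041, near the -0.066 of all genes and above 0 after rescaling to TPM (0.12) or by median ratios (0.018). FOXM1, the activator of the late cell cycle genes, went from 217 ± 8.94 to 77.4 ± 3.74 FPKM (± SD, n = 4 in each), or -1.48 on the log2 scale (limma adjusted p = 1.38e-08), and TFDP1, the partner of E2F proteins, had a log2 fold change of -0.75. The higher genes were LIN54, the DREAM and MMB subunit that binds CHR, at 1.73 (limma adjusted p = 7.7e-07), and all 3 subunits of NF-Y, the factor that binds CCAAT. NFYA went from 44.0 ± 2.00 to 118 ± 2.59 FPKM (log2 fold change 1.42, limma adjusted p = 1.26e-08), and NFYB and NFYC had log2 fold changes of 0.29 and 0.33.

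Of 8 genes around PLK4 in centriole duplication, 5 rose, CEP63 fell, and CEP192 and CENPJ did not pass, with a median of 0.47; 34.2% of all genes were higher, and 40.4% after rescaling to TPM. CEP135, a cartwheel protein, went from 4.59 ± 0.249 to 13.7 ± 1.37 FPKM (± SD, n = 4 in each), or 1.47 on the log2 scale (limma adjusted p = 4.39e-07). STIL and SASS6, which PLK4 recruits to start a new centriole, had log2 fold changes of 0.45 and 0.74, and CEP63 had one of -0.84. Of 7 genes of the Greatwall pathway and PP2A-B55, the phosphatase that reverses CDK1 phosphorylation, 3 rose, 2 fell and 2 did not pass, with a median of 0.019, and 72.2% of all genes passed. PPP2R2A, the B55 alpha subunit, went from 110.2 ± 4.81 to 253 ± 2.67 FPKM (log2 fold change 1.195, limma adjusted p = 1.62e-08), and PPP2CB, a catalytic subunit, had a log2 fold change of 1.16. ENSA and PPP2R2D fell by 0.37 and 0.29 on the log2 scale.

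The growth arrest genes are a list of p53 response genes to which PLK2 and PLK3 are also often assigned; A673 cells carry mutant p53. Of 10, 8 were higher and SESN1 and CCNG1 were lower, with a median log2 fold change of 1.29. TP53INP1, 1 of the 8, reached the 1 FPKM filter only through its JIB-04 values, and with a filter of 5 FPKM, which removed it and SESN1, 7 were higher, 1 was lower and the median was 1.72. GADD45A, which inhibits CDK1 with cyclin B, went from 41.1 ± 1.98 to 527 ± 15.99 FPKM (± SD, n = 4 in each), or 3.66 on the log2 scale (limma adjusted p = 1.75e-10), and CDKN1A, the inhibitor p21, from 22.7 ± 2.89 to 264 ± 27.4 FPKM (log2 fold change 3.51, limma adjusted p = 7.17e-09). BTG2 and SESN2 had log2 fold changes of 2.88 and 1.89, and SESN1 and CCNG1 of -0.56 and -1.34. The study named FOXM1, CCNB1 and CDKN1A from these samples, and its supplement lists all transcripts that it found changed at least 2-fold in them. Every value here comes from those same samples, so no list and no kinase is independent evidence.

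**Figure D5:**
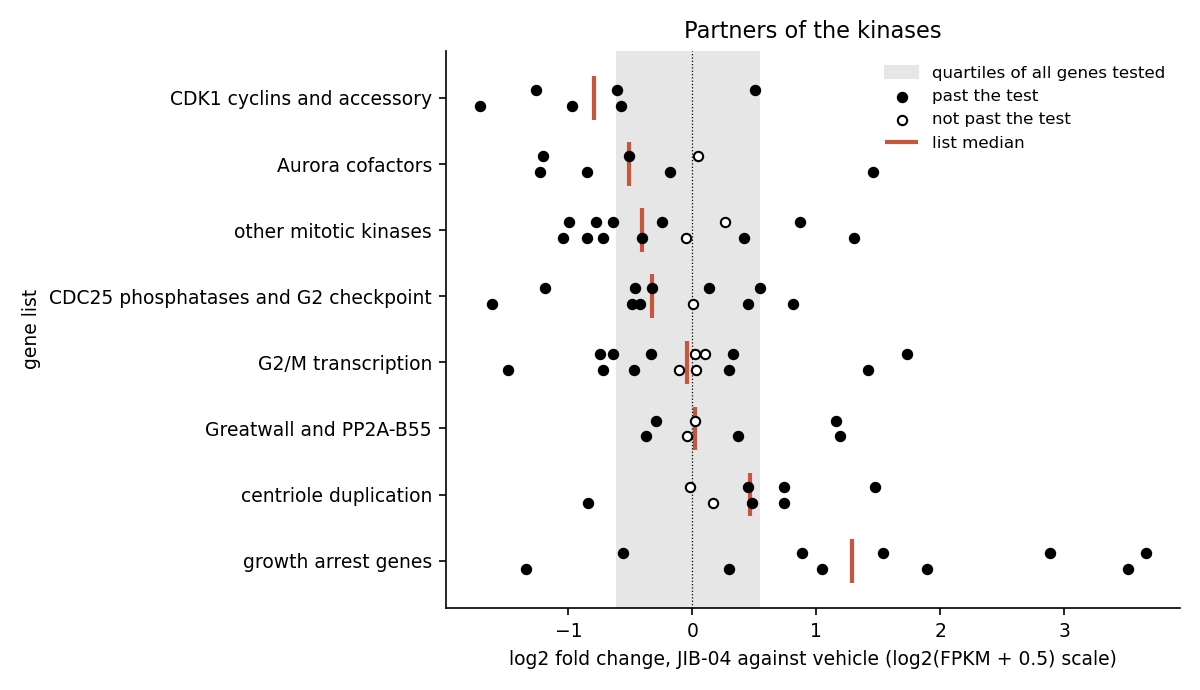
Log2 fold change, JIB-04 against vehicle, of each tested member of 8 gene lists, on the log2(FPKM + 0.5) scale. Not every member is a partner of the kinases. Filled points passed the limma test, open points did not, red bars are list medians and the grey band runs from the lower to the upper quartile of all genes: the medians go from -0.79 for CDK1 cyclins and accessory subunits to 1.29 for growth arrest genes.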

How the data were processed

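Reads of 8 libraries were aligned by the authors to GRCh38 with GSNAP, processed with SAMtools and turned into gene FPKM with Cufflinks (per the paper's methods and the submitters' processing notes). No other change was made to the deposited FPKM values, except that entries of the 117 identifiers present more than once were summed, and 13 genes with a placeholder of 999999999 were left out. The groups were compared with limma 3.58.1 in R 4.3.3 (lmFit, eBayes with trend) on log2(FPKM + 0.5), which understates changes of low genes, over the 17460 genes averaging 1 FPKM or more. Benjamini-Hochberg adjustment ran over these genes. The fit was tested on simulated data in which few genes changed and the noise was independent. Most genes passed in the real data, so the simulation cannot speak to that setting. The study's own test was an analysis of variance of FPKM. Ratios of FPKM + 0.5 within a library were compared by exact permutation of the 8 libraries (70 splits). GENCODE 29 gave coordinates. Python 3.11.15, pandas 2.3.3 and matplotlib 3.10.9 made tables and figures.

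The kinases and gene lists were chosen with earlier results of these data known. The text names all 10 kinases and, from each list, up to 4 genes with the smallest adjusted p and those against the list's majority. Alternatives tried were a pseudocount of 0.1 or 1, a filter at 5 FPKM or none, TPM, median-ratio scaling, the analysis of variance, ratios of means, a replicate block and leaving out each library.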

Additional observations from a re-analysis of the deposited data

Results flagged for a closer look

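PLK4 in vehicle replicate 4 stood apart at 56.4 FPKM, against 35.4 to 37.2 FPKM in the other vehicle libraries. Its gap to the nearest of them was 0.915 of the range of the group, over the 95% critical value of Dixon's test with 4 samples. This was 1 of 20 groups tested, and chance alone passes that value in about 1 of 20.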

How the results depend on the processing

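The calls of AURKA, AURKB, PLK1, PLK2, PLK3 and PKMYT1 and their directions held under all 16 alternatives with a test, and WEE1 held under 15. Rescaling to TPM moved the median of all genes by 0.15 on the log2 scale: it ended the call of WEE1 (-0.19), turned CDK1 (0.049) and the G2/M transcription list (median 0.12; 0.018 with median-ratio scaling), and gave medians of -0.63 for CDK1 cyclins, -0.16 for the CDC25 and checkpoint list, -0.35 for Aurora cofactors (2 higher), -0.25 for other mitotic kinases, 0.63 for centriole duplication and 0.18 for Greatwall and PP2A-B55 (5 higher). With it 40.4% of all genes were higher and 31.1% lower. Median-ratio scaling gave -0.35 for other mitotic kinases and 0.53 for centriole duplication. With no filter the medians were -0.16 for the CDC25 list and -0.33 for other mitotic kinases; with at least 5 FPKM they were -0.16, -0.52 and, for growth arrest genes, 1.72 (1 lower), and 1526 genes instead of 2294 were at least 2-fold higher. Growth arrest genes had 1.52 with a pseudocount of 0.1 and 1.62 by the analysis of variance. PLK4, which passed no test with all libraries, was -0.0022 by the analysis of variance and by the ratio of means.

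Leaving out 1 library gave log2 fold changes of -0.041 to 0.18 for PLK4 (-0.027, -0.018 and -0.041 without vehicle replicates 1, 2 and 3, and -0.013 without JIB-04 replicate 2), -0.22 to -0.029 for CDK1 and -0.28 to -0.13 for NEK2. Medians ran from -0.12 to 0.020 for G2/M transcription (0.020 without vehicle replicate 1, 0.0056 without JIB-04 replicate 4), from 0.38 to 0.54 for centriole duplication and from -0.031 to 0.054 for Greatwall and PP2A-B55 (-0.0088 without vehicle replicate 1, -0.031 without JIB-04 replicate 1). Log2 ratio differences ran from -0.36 to -0.25 for AURKB to AURKA, 3.92 to 4.24 for PLK2, 2.39 to 2.53 for PLK3 and 1.29 to 1.53 for PLK4 to PLK1, and -0.65 to -0.32 for PKMYT1 to CDK1. These ratios to PLK1 and the AURKB ratio no longer passed without vehicle replicate 1, vehicle replicate 2 or JIB-04 replicate 1. With 3 against 4 libraries the smallest exact p stays 0.0286, and the adjusted p of the 3 ratios to PLK1 rose to 0.0571 because fewer of the 6 ratios reached it. The replicate block changed no call of a kinase gene in limma. Same-numbered deviations correlated by -0.058 to 0.082, against -0.14 to 0.10 for different numbers, and 1 of 8 libraries correlated best with its own number. No pairing by number was seen, though so few libraries cannot exclude one. Sign flips within the pairs left the ratio differences at -0.32, 4.10, 2.45 and 1.35 with adjusted p = 0.15; their smallest p is 0.125.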

Other observations

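The remaining relatives of the Aurora and polo-like kinases, AURKC and PLK5, are best known from germ cells and brain, and both were near the floor of the table. AURKC was at 0.598, 0.952, 0.345 and 0.488 FPKM with vehicle and at 1.57, 2.28, 2.73 and 2.13 FPKM with JIB-04. All treated values were above the vehicle ones, at levels far below AURKA and AURKB. The gene reached the filter of 1 FPKM only through its JIB-04 values, so its p-value is not printed. It was tested, and it is counted and drawn as higher among the other mitotic kinases. PLK5 was under the filter of 1 FPKM and was not tested, at 0 to 0.0629 FPKM with vehicle and 0.326 to 0.676 FPKM with JIB-04.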
